A study of Mus musculus with 12 samples.

Results

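Transcripts of 9 genes that carry, make, clear or sense retinoic acid were followed in mouse forestomach: Crabp1, Crabp2, Dhrs3, Dhrs9, Rdh10, Cyp26b1, Rara, Rarb and Rarg. The members were all 17 probes whose gene name on the array is one of these symbols, out of 41174 probes other than controls. A total of 16 of the 17 passed the filter on dim probes, and the brightest of them stood for each gene, so that all 9 genes were among the 20735 tested. RNA came from the whole forestomach, the keratinised front part of the rodent stomach, of adult wild-type C57BL/6J mice. There were 4 samples after 40 weeks of 15% alcohol, 4 after 4 weeks of 20% alcohol in a supersaccharin drink, and 4 controls that drank supersaccharin with 0% alcohol. For the 40-week group the labels do not mention saccharin, and no control of that age was among the samples. Every array set forestomach RNA in Cy5 against a commercial mouse reference RNA pool in Cy3, so a value is the log2 ratio of forestomach to pool, and a value above 0 means more signal in forestomach.

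Vitamin A reaches tissues as retinol, which is oxidised to retinal by retinol dehydrogenases and then to retinoic acid. Retinoic acid is held by binding proteins in the cytosol, is cleared by CYP26 hydroxylases, and acts through nuclear receptors of the RAR family, which pair with RXRs on DNA. In squamous epithelia the vitamin is known for restraining keratinisation, and alcohol and aldehyde dehydrogenases share substrates with the retinoid pathway.

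Several arrays stood apart before any comparison. The median log2 ratio of 7 glandular stomach markers was 4.08 in 4-week replicate 2 and 5.40 in control replicate 4, with 0.15 to 2.88 in the rest of the 12 samples. For 6 pancreas markers, control replicate 3 had 5.97 and the rest had 0.03 to 2.19. The 40-week replicates 3 and 4 differed from replicates 1 and 2 in Xist, at 1.96 and 1.55 against -5.40 and -5.72. They also had little signal of Y chromosome genes. Ddx3y was at -4.26 and -4.02, against 0.49 to 1.49 in all other samples. Eif2s3y was at -5.67 and -6.28, against 2.61 to 3.17. By these transcripts replicates 3 and 4 read as female and all other samples as male, so only the 40-week group mixed the sexes. Scanner files were used for the control and 4-week arrays, where 64.8% to 78.8% of spots were well above background in Cy5. Each of these groups lay on a slide and scan of its own, so slide and group cannot be told apart.

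The oligonucleotides matter here because probes of the same gene disagreed. Each probe has 60 bases, and positions below are those of the array files on mouse build mm9. The 3 Rdh10 probes lie on the plus strand of chromosome 1, with at most 1649 bases between their starts, at 16121478 to 16121537, 16122062 to 16122121 and 16123127 to 16123186. The last of them stood for the gene. It is built from a run of 25 bases that begins at its base 1 and again at its base 36. That run is shown in capitals, and the first 30 bases are given for the other 2.
Rdh10 A_52_P470663 (bases 1 to 25): TGTATTAGTGTGGGTGTCTCTGTTA
Rdh10 A_52_P421234 (bases 1 to 30): gaagcaaaaaatggaatctaagagtgtttt
Rdh10 A_52_P59318 (bases 1 to 30): attaaatgtttagagacctggttaatccac

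Rarg was read by 4 probes on the minus strand of chromosome 15. A pair of them was designed on 1 RefSeq transcript and the other pair on a separate mRNA record, and the probes are shown because their changes at 40 weeks differed in sign. The first pair starts at 102066309 and 102066621, and the second at 102072411 and 102072505. No run longer than 7 bases was shared between any 2 Rarg probes, and no longer run between any 2 probes of the other members.
Rarg A_51_P372853 (first pair, bases 1 to 30): cactctccacccttttaatgagctcgttat
Rarg A_51_P372858 (first pair, bases 1 to 30): cgacctccggggcatcagcactaagggagc
Rarg A_52_P26409 (second pair, bases 1 to 30): atgagggtgcttctgctcagcttctgctta
Rarg A_52_P380418 (second pair, bases 1 to 30): tggtctgggctttccagggagtacctgtta

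Across the 3 comparisons, Crabp2 showed the largest change among the members, a fall after 40 weeks. No member passed the test after 4 weeks, where 1.1% of all genes did. After 40 weeks, 4 of the 9 passed it against control, where 42.6% of all genes did (2 members higher, with 18.9% of all genes, and 2 lower, with 23.7%), and 4 of 9 against 4 weeks, where 41.6% did. The share of members called was therefore near that of all genes in both 40-week comparisons. A gene counted as called at an adjusted p under 0.05 in limma, with Benjamini-Hochberg adjustment over all 20735 genes. The 2 comparisons with control share the control samples. Members do not stand for replicates of each other, and nothing says that each replicate is a separate animal. The 40-week group did hold different animals, since by the transcripts above its replicates read as both sexes. The tests reflect only how much the samples of a group differ, part of which may be technical.

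**Figure D1:**
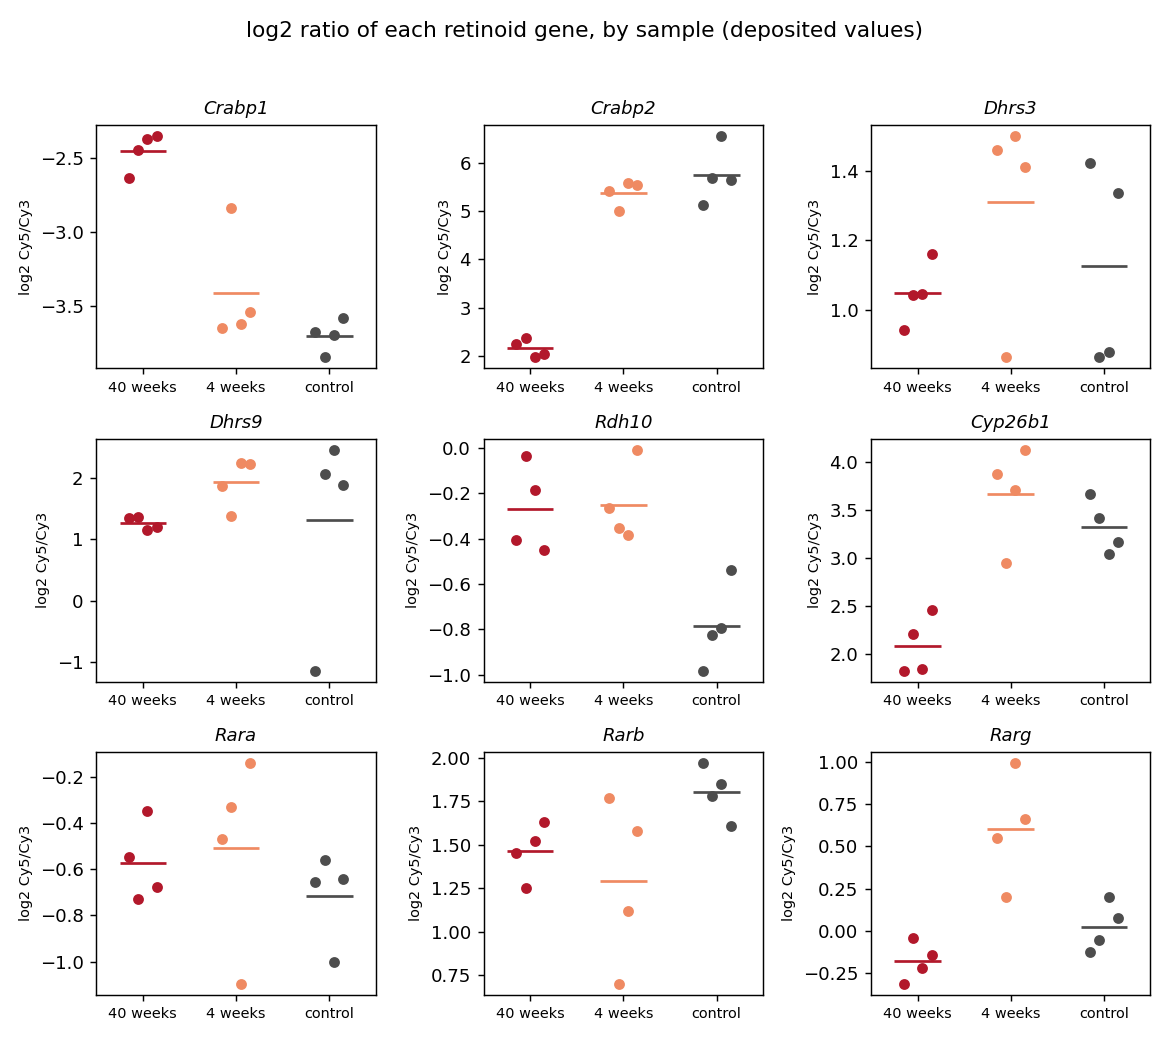
Deposited log2 ratio of Cy5 over Cy3 (vertical axis) of the 9 genes in 40-week, 4-week and control samples, with points for the 4 samples of each group and a bar for their mean. Crabp2 at 40 weeks lies between 1.98 and 2.38, below every 4-week and control sample, and the Dhrs9 control at -1.13 lies far below the other controls.

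Of the cytosolic binding proteins, Crabp2, which hands retinoic acid to its nuclear receptors, had log2 ratios of 2.25, 2.38, 1.98 and 2.04 at 40 weeks. It had 5.41, 4.99, 5.58 and 5.53 at 4 weeks, and 5.12, 5.67, 6.54 and 5.65 in controls. All 4 samples at 40 weeks lay below the 8 others, while the 4-week and control samples overlapped. The ratio fell by 3.58 ± 0.25 against control (log2, SE; adjusted p = 1.76e-06), to 0.0835 of the control ratio, and by 3.22 ± 0.25 against 4 weeks (adjusted p = 1.31e-05). In all 18 alternative settings the fall against control passed the test, from -3.79 to -2.06. The smallest of these falls came after quantile normalisation between arrays.

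Markers of several cell types were lower in the same comparison. The 6 cornified layer markers (Lor, Krt10, Krt1, Lce1m, Crct1, Sprr1b) were all called lower, with a median log2 change of -3.21, as were all 6 squamous epithelium markers, with -1.96. So were 5 of 5 smooth muscle markers (median -2.70), 4 of 4 of endothelium (-1.51), 3 of 4 of macrophages (-1.41) and 2 of 5 of adipocytes (-3.28). The remaining macrophage marker was called higher. Few or none were called lower of fibroblast (1 of 5, median -0.13) and pancreas markers (1 of 6, -2.20). The same held for glandular stomach (0 of 6, -0.92) and enteric neurons and glia (0 of 3, 0.08). Lower ratios were thus not particular to the keratinised layers, nor shared by every cell type. The cornified layer's median log2 ratio per sample was 2.96 to 3.45 at 40 weeks, 4.33 to 5.56 at 4 weeks and 6.54 to 7.35 in controls. Between 4 weeks and control, these markers had a median change of -0.04 in Cy5 alone, with 0 of 6 called. In Cy3 alone it was 1.78, with 5 of 6 called higher. Each channel was quantile normalised, which holds all arrays to 1 distribution and can hide a change in very bright spots. Without that step, the summed Cy5 signal of the 6 markers was 789088 to 1.43e+06 units at 4 weeks, against 1.75e+06 to 2.24e+06 in controls. The median Cy5 signal of the whole array was also lower on every 4-week array than on any control array. Which channel held the 4-week difference was not tested. The part of any of these cell types in the fall of Crabp2 was not tested. In bulk tissue, fewer cells of a type and less RNA per cell cannot be told apart. Nor can either be told apart here from the narrower 40-week columns described below. Over all genes with a control log2 ratio of 3 to 5 the median change was -1.34, and above 5 it was -2.40. The marker changes are given as deposited, without scaling.

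After 4 weeks Crabp2 did not pass the test. In the ratios computed here from the scanner files it had 4.72, 4.43, 4.57 and 4.57 at 4 weeks, against 3.89, 4.86, 5.90 and 4.92 in controls. The change was -0.32 ± 0.35 (adjusted p = 0.683). Control replicate 3, the array with pancreas transcripts, was the highest of the 8, and without it the change was 0.02. In the Cy5 channel alone, which holds the forestomach RNA, the change was -0.03. The Cy3 spot behind every one of these ratios was dim, with 77.6 to 139 units above local background at 4 weeks and 87.6 to 110 in controls.

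Crabp1, the other cytosolic binding protein for retinoic acid, gave far less signal in forestomach than in the pool. Its log2 ratios were -2.63, -2.44, -2.37 and -2.35 at 40 weeks, -3.66, -2.84, -3.62 and -3.54 at 4 weeks, and -3.68, -3.85, -3.70 and -3.59 in controls. The 40-week samples lay above all others, and 4-week replicate 2, an array with glandular stomach transcripts, was the highest of the rest. The ratio rose by 1.25 ± 0.17 against control (adjusted p = 0.000171) and by 0.97 ± 0.17 against 4 weeks (adjusted p = 0.00119). When every array was scaled to 1 spread, the change against control was 0.12 (adjusted p = 0.664) and that against 4 weeks turned to -0.14. After 4 weeks the scanner ratio changed by 0.29 ± 0.17 (adjusted p = 0.413), with overlapping groups.

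The 40-week columns of the deposited table were narrower than the others, with a standard deviation over probes of 1.02 to 1.08 against 1.48 to 1.73, so ratios far from 0 in controls lay nearer 0 at 40 weeks. How far this reached is seen by sorting all genes by their control ratio. Among 323 genes with a control log2 ratio below -3, the band that holds Crabp1, the median change at 40 weeks was 1.22, next to 1.25 for Crabp1. In the band of 3 to 5, with 937 genes, the median was -1.34, next to -1.24 for Cyp26b1. Above 5, with 533 genes, it was -2.40, against -3.58 for Crabp2. The control ratio that sets a band is also subtracted in the change, which by itself moves such medians towards 0 ratio. At 4 weeks the deposited ratios of the same bands had median changes of 0.16, -0.32 and -0.86. After scaling to 1 spread the 40-week medians were 0.05, -0.18 and -0.67, and Crabp2 stood at -2.25 ± 0.19 (adjusted p = 2.16e-05). Crabp2 was the only member called against control under that scaling, where 37.2% of all genes were called.

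**Figure D2:**
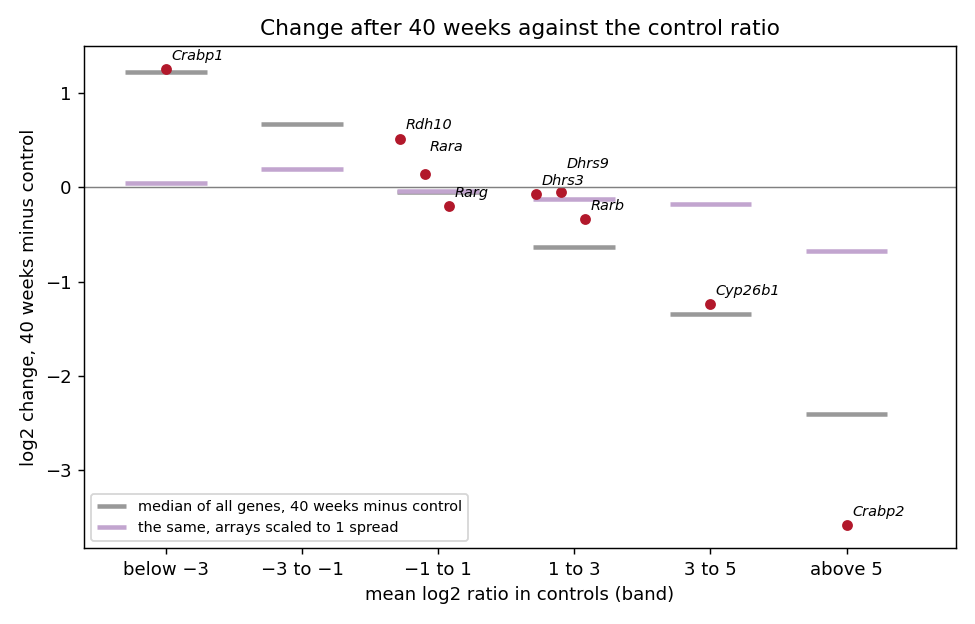
Log2 change of the deposited ratio at 40 weeks minus control (vertical axis) by band of the mean control log2 ratio (horizontal axis). Grey bars give the median over all genes of a band, mauve bars the same after scaling, and points the 9 members as deposited, placed side by side within a band for legibility. Crabp1 and Cyp26b1 sit beside the grey bar of their band (1.22 and -1.34), and Crabp2 sits below its bar (-2.40).

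Cyp26b1, a hydroxylase that clears retinoic acid, was the only one of the 4 enzyme genes with a single probe. Its log2 ratios were 1.83, 2.21, 1.84 and 2.46 at 40 weeks, 3.88, 2.96, 3.72 and 4.13 at 4 weeks, and 3.67, 3.43, 3.04 and 3.17 in controls. The 40-week samples were below all others. The ratio fell by 1.24 ± 0.25 against control (adjusted p = 0.00207) and by 1.59 ± 0.25 against 4 weeks (adjusted p = 0.00053). Under scaling to 1 spread these changes were -0.26 (adjusted p = 0.487) and -0.61 (adjusted p = 0.101), so neither call was kept in that setting. Of 18 alternative settings, 16 kept the call against control and 17 that against 4 weeks. After 4 weeks the scanner ratio changed by 0.33 ± 0.24 (adjusted p = 0.514) and Cy5 alone by 0.68 ± 0.33 (adjusted p = 0.349), with overlap in both.

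Rdh10, which oxidises retinol to retinal, came nearest to the threshold after 4 weeks. Scanner log2 ratios of the probe that stands for it were -0.28, -0.37, -0.39 and -0.02 at 4 weeks, against -0.98, -0.84, -0.81 and -0.57 in controls. The groups did not overlap, which held for 11.8% of all genes and for no other member. The change was 0.53 ± 0.13, and it missed the threshold (adjusted p = 0.0916). In the deposited table the same change was 0.53 and was called (adjusted p = 0.0487), where 6.01% of all genes were called. The means of both channels differed, and neither change was called. Cy5 changed by 0.30 ± 0.13 (adjusted p = 0.311), and Cy3, which holds the same pool on every array, by -0.23 ± 0.06 (adjusted p = 0.0553). Cy3 was lower on all 4 arrays at 4 weeks than on any control array, which cannot be told apart from slide.

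The 3 Rdh10 probes disagreed. In the scanner ratios at 4 weeks the other probes changed by -0.02 ± 0.16 for A_52_P421234 and by 0.19 ± 0.16 for A_52_P59318. At 40 weeks the probe with the repeated run had -0.41, -0.03, -0.19 and -0.45, against -0.98, -0.83, -0.79 and -0.54 in controls. It was called higher, by 0.52 ± 0.14 (adjusted p = 0.0123), and was not called when scaled to 1 spread (0.35, adjusted p = 0.0748) or with fewer samples, without 40-week replicates 3 and 4, where the change was as large (0.56 ± 0.19, adjusted p = 0.0516). Probe A_52_P421234 had 0.76, 0.82, 0.69 and 0.63 at 40 weeks, against 1.59, 1.30, 1.79 and 1.46 in controls. That probe was called lower, by 0.81 ± 0.15 when each probe was tested by itself (log2 change -0.81, adjusted p = 0.00143). Neither pair of groups overlapped, and the directions were opposite. The mean of the 3 probes changed by -0.13 against control (adjusted p = 0.411) and was called lower against 4 weeks (-0.41, adjusted p = 0.0199), so no direction is given for the gene.

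Dhrs9 and Dhrs3 are short-chain dehydrogenases. DHRS9 is known, from human and rat enzymes, to oxidise retinol, and DHRS3 reduces retinal back to retinol. Dhrs9 had log2 ratios of 1.35, 1.37, 1.15 and 1.20 at 40 weeks, 1.87, 1.38, 2.24 and 2.23 at 4 weeks, and -1.13, 2.06, 2.46 and 1.88 in controls. Control replicate 1 was far below every other sample. Its Cy3 spot held 11146 units above local background, against 650 to 1007 in the other controls, while its Cy5 spot, at 1700, was near their 1763 to 2125. Against control the 40-week change was -0.05 ± 0.61 (adjusted p = 0.955), and without that array it was -0.87 (adjusted p = 0.00774), which is a call. The second Dhrs9 probe, A_51_P149126, read 2.78 on that array, the highest of its controls, and was called lower at 40 weeks by itself (log2 change -0.74 ± 0.25, adjusted p = 0.0305). After 4 weeks the scanner ratio changed by 0.59 ± 0.67 with control replicate 1 and by -0.19 without it, and neither passed the test. Cy5 alone, which that Cy3 spot does not touch, changed by 0.63 ± 0.20 on the first probe (adjusted p = 0.172) and by 0.04 ± 0.20 on the second (adjusted p = 0.948, each probe tested by itself).

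For Dhrs3, log2 ratios were 0.94, 1.04, 1.05 and 1.16 at 40 weeks, 1.46, 0.87, 1.5 and 1.41 at 4 weeks, and 1.42, 0.87, 0.88 and 1.34 in controls. Groups overlapped in each comparison. The change was -0.08 ± 0.17 at 40 weeks against control (adjusted p = 0.749), -0.26 ± 0.17 at 40 weeks against 4 weeks (adjusted p = 0.254), and 0.20 ± 0.19 in the scanner ratios at 4 weeks (adjusted p = 0.634). Its second probe, tested by itself, was called lower at 40 weeks against 4 weeks (-0.68 ± 0.18, adjusted p = 0.00847).

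**Figure D3:**
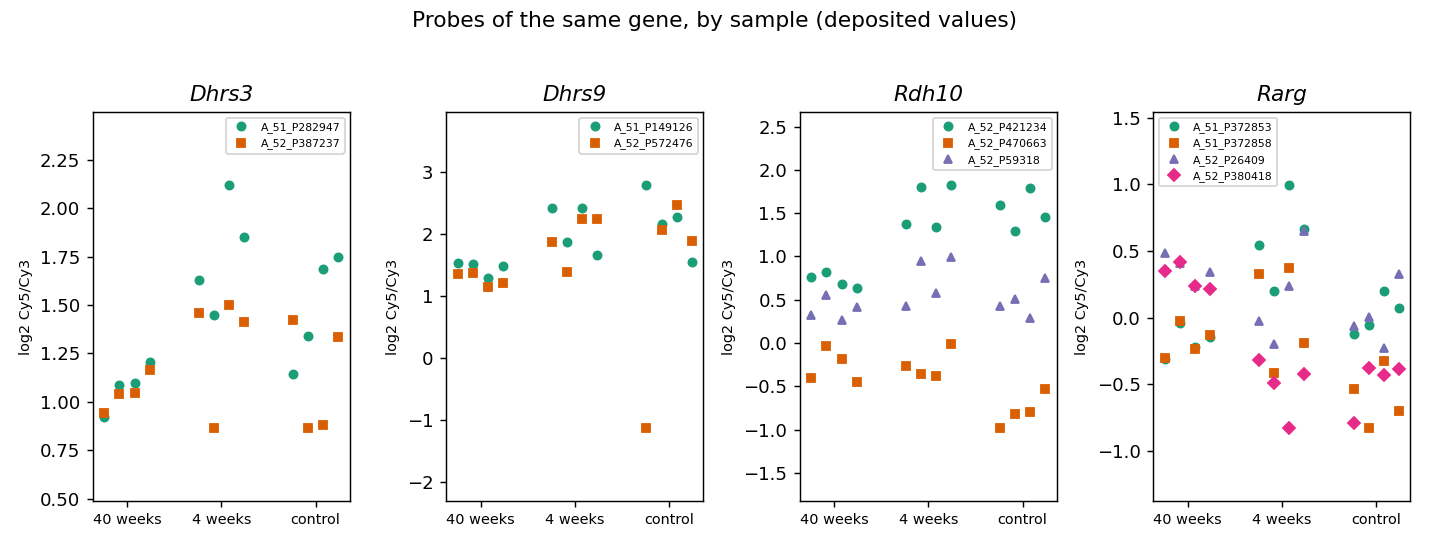
Deposited log2 ratio of Cy5 over Cy3 (vertical axis) of every kept probe of Dhrs3, Dhrs9, Rdh10 and Rarg in 40-week, 4-week and control samples, with 1 colour and marker per probe and 4 samples per group. At 40 weeks the 2 probes of Dhrs3 lie within 0.05 of each other in each sample, the 4 Rarg probes form 2 pairs, and the 3 Rdh10 probes are closer together than in the other groups.

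Of the nuclear receptors, Rarg, the main retinoic acid receptor of skin epithelium, had scanner log2 ratios of 0.45, 0.15, 0.85 and 0.52 at 4 weeks, against -0.11, -0.08, 0.16 and 0.04 in controls. All but 4-week replicate 2 lay above every control. The change was 0.49 ± 0.15 and did not pass the test (adjusted p = 0.160). Cy5 alone changed by 0.51 ± 0.19 (adjusted p = 0.231) and Cy3 alone by -0.03 ± 0.06. The second probe of the same pair changed by 0.45 ± 0.15, and the probes of the other pair by 0.11 ± 0.15 and 0.04 ± 0.10, none of them called.

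At 40 weeks the Rarg probe that stands for the gene had -0.31, -0.04, -0.22 and -0.14, against 0.55, 0.20, 0.99 and 0.66 at 4 weeks and -0.12, -0.06, 0.20 and 0.07 in controls. The 40-week and 4-week samples did not overlap, and the ratio was lower at 40 weeks by 0.78 ± 0.16 (log2 change -0.78, adjusted p = 0.00241). Against control the change was -0.20 ± 0.16 (adjusted p = 0.322). The 3 other probes had positive changes against control, which did not pass the test for A_51_P372858 of the same pair (0.42 ± 0.19, adjusted p = 0.0863) and A_52_P26409 (0.36 ± 0.18, adjusted p = 0.135). Probe A_52_P380418 had 0.35, 0.42, 0.23 and 0.22 at 40 weeks, against -0.32, -0.49, -0.83 and -0.42 at 4 weeks and -0.79, -0.38, -0.43 and -0.39 in controls. It was called higher at 40 weeks against both groups, by 0.80 ± 0.14 against control (adjusted p = 0.000991) and 0.82 ± 0.14 against 4 weeks (adjusted p = 0.000948). The mean of the 4 probes changed by 0.34 against control (adjusted p = 0.0337) and by 0.01 against 4 weeks (adjusted p = 0.95). The direction for Rarg thus depended on the probe.

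Within the 40-week samples the probes of a pair were nearly equal. The first Rarg pair, 312 bases apart at their starts, differed by at most 0.014 in any 40-week sample, against at most 0.86 at 4 weeks and 0.77 in controls. Of 4443 transcripts read by 2 kept probes, this was the closest pair at 40 weeks, where the median of that largest difference was 0.57. The 2 Dhrs3 probes differed by at most 0.05, which ranked 9 of 4443, against 0.62 at 4 weeks and 0.81 in controls. The second Rarg pair differed by at most 0.13. Which step made these probes so close was not tested, since scanner files of the 40-week arrays were not analysed here.

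Rarb, itself a textbook target of retinoic acid through a repeated element just before its start, was read by a probe with 10 spots on each array. In the scanner ratios, averaged over the spots, it had 1.56, 0.59, 0.90 and 1.25 at 4 weeks, against 1.72, 1.61, 1.69 and 1.41 in controls. All but 4-week replicate 1 lay below every control, and replicate 2, an array with glandular stomach transcripts, was the lowest. The change was -0.53 ± 0.20 (adjusted p = 0.220), and Cy5 alone changed by -0.52 ± 0.24 (adjusted p = 0.321). Spots of this probe on 1 array varied with a standard deviation of 0.12 to 0.22 in the raw log2 ratio. At 40 weeks the deposited ratios were 1.45, 1.25, 1.52 and 1.63, against 1.77, 0.70, 1.12 and 1.58 at 4 weeks and 1.97, 1.78, 1.85 and 1.61 in controls. Neither the change against control (-0.34 ± 0.21, adjusted p = 0.206) nor that against 4 weeks (0.17 ± 0.21, adjusted p = 0.537) passed the test. Under scaling to 1 spread the change against 4 weeks was 0.70 and was called (adjusted p = 0.0192). The second Rarb probe was well above background in Cy5 on 0 of the 8 arrays and was not tested.

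The start of Rarb is shown because its element is the best known link between the ligand and a member of this set. RefSeq promoters on build GRCm38.p6 were listed for 7 of the 9 genes, in 13 windows of 300 bases, 250 before and 50 after a gene start. A direct repeat with a spacing of 5 was searched on both strands as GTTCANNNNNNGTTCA, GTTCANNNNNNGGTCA, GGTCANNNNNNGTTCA and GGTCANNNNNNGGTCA. The first base of each copy was not set. In the second copy it is the last open letter (N), after those of the spacing. The repeat was found in 81 of 32851 windows (0.247%), and of the members searched in Rarb alone. Crabp2 and Rdh10 had no listed window and were not searched. A repeat of the same runs with a spacing of 2 was found in 131 windows (0.399%) and in 0 of the 13 windows of members. The 150 bases before the start, at chr14:16575477-16575626 on the minus strand, hold the match, in capitals, which begins 52 bases before the start. A match is a description of letters, and binding was not measured.
Rarb: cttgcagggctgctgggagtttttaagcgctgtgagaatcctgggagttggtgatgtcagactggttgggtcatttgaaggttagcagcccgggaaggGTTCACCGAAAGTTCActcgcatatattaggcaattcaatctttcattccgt

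Rara, the third receptor, gave little forestomach signal. Its Cy5 spot was 11.3 to 29.2 units above local background at 4 weeks and 25.3 to 34.5 in controls, and it was well above background on 2 of 4 arrays at 4 weeks and on 4 of 4 in controls. Deposited log2 ratios were -0.55, -0.73, -0.35 and -0.68 at 40 weeks, -0.47, -0.33, -1.10 and -0.14 at 4 weeks, and -0.65, -0.56, -1 and -0.64 in controls. The groups overlapped throughout. The changes were 0.14 ± 0.19 at 40 weeks (adjusted p = 0.586) and 0.12 ± 0.10 in the scanner ratios at 4 weeks (adjusted p = 0.590).

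Set side by side, 7 members had a higher and 2 a lower mean ratio after 4 weeks, with a median change of 0.29, against -0.02 over all genes. An unadjusted p under 0.05 was reached by 3 of the 9 (Rdh10, Rarg and Rarb), as by 18% of all genes. In Cy5 alone none was called, where 0.357% of all genes were, and in Cy3 alone none was called, where 8.7% were. After 40 weeks the median change of the 9 was -0.08 against control, the same to 2 decimals as over all genes. In that comparison 4 members (Crabp1, Crabp2, Rdh10 and Cyp26b1) had no overlap with the controls, where 42.4% of all genes had none. Between 40 and 4 weeks it was 5 members, the called 4 and Dhrs9, where 45.2% of all genes did not overlap.

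**Figure D4:**
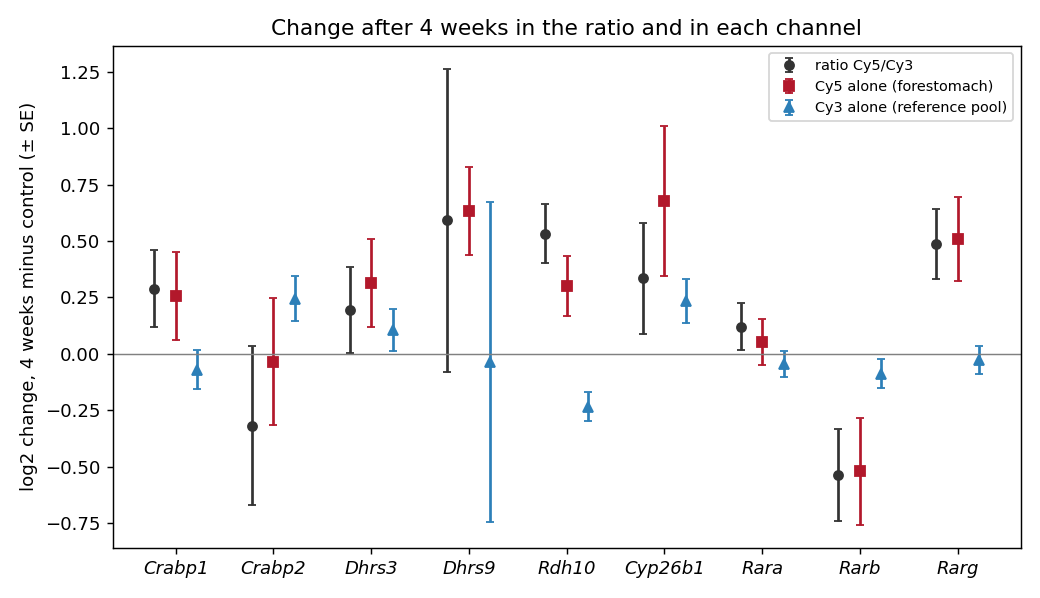
Log2 change at 4 weeks minus control (vertical axis, error bars SE, 4 samples a group) of the 9 genes in the Cy5/Cy3 ratio, in Cy5 alone and in Cy3 alone. Rarg (0.49 in the ratio) and Rarb (-0.53) follow Cy5. For Rdh10 (0.53) the means of both channels differ, with neither change called. Dhrs9 has the longest error bar of the ratios (0.67).

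**Figure D5:**
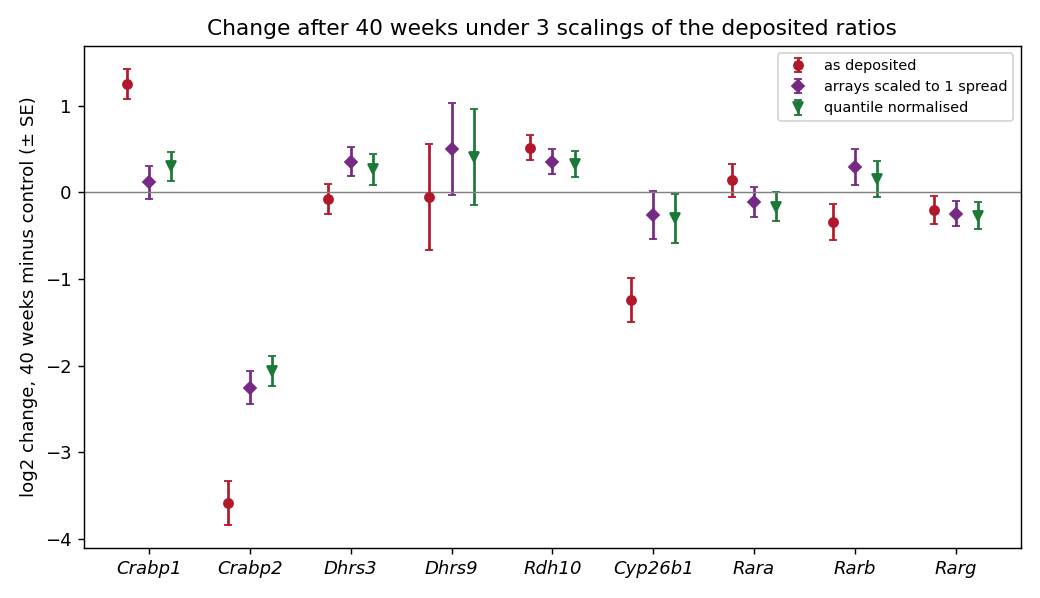
Log2 change at 40 weeks minus control (vertical axis, error bars SE, 4 samples a group) of the 9 genes as deposited, with all arrays scaled to 1 spread and after quantile normalisation. Crabp2 lies at -3.58, -2.25 and -2.06, while Crabp1 goes to 0.12 and Cyp26b1 to -0.26 when scaled.

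Genes around the members were taken from 5 lists of the pathway (66 genes, 58 tested). None of the 58 passed the test at 4 weeks. Against control, 9 were higher and 22 lower at 40 weeks, where 18.9% and 23.7% of all genes were. Once arrays were scaled to 1 spread, 15 were higher and 8 lower, where 37.2% of all genes were called. Against 4 weeks, 6 were higher and 16 lower at 40 weeks, where 41.6% of all genes were called. When scaled, 12 were higher and 5 lower, where 8043 of all 20735 genes were called. The 6 with the smallest adjusted p were the same in both comparisons. Stra6, the cell-surface retinol transporter, rose by 2.45 against control and 2.76 against 4 weeks, and by 2.35 and 2.62 when scaled. Adh1, an alcohol dehydrogenase that also oxidises retinol, changed by -2.43 and -1.91, and by -0.98 and -0.58 when scaled. Aldh1a7, a relative of the retinal dehydrogenases, changed by -2.68 and -1.86, and Rbp2, a cytosolic retinol-binding protein, by -2.26 and -1.37. When scaled, both were called lower against control, at -1.09 and -0.84, and neither was called against 4 weeks. Rxrg, an RXR partner, changed by -1.26 and -1.13, and Fabp5, a fatty acid-binding protein that can carry retinoic acid, by -2.08 and -1.86. When scaled, both turned sign, Rxrg to 0.21 and 0.27 and Fabp5 to 0.19 and 0.31, and neither was called.

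Within groups, the members did not move as a unit. Pearson correlations over the 12 samples after each group's mean was subtracted ran from -0.71 for Rara with Rarg to 0.79 for Crabp2 with Dhrs9, and these points share arrays and tissue pieces. By the same measure Rarg followed the median of the squamous epithelium markers (0.89), the cornified layer (0.86) and smooth muscle (0.89). The genes most like each member were Blmh (0.98) and Dapl1 (0.98) for Rarg, Acox2 (0.99) and Bzw2 (0.98) for Dhrs9, and Iws1 (0.97) and Ereg (0.97) for Crabp2. The Dhrs9 control at -1.13 is among the points of its correlations. Cyp26b1 was most like Myocd (0.95) and Uaca (0.94), Crabp1 like Olfr1048 (0.97) and Oas1f (0.95), and Rarb like Gtf2f1 (0.95) and Ccdc61 (0.91). For the rest they were Dnajb9 (0.92) and Olfr705 (0.91) for Rdh10, Prkd1 (0.94) and Met (0.91) for Rara, and Mrpl20 (0.90) and Rnf40 (0.90) for Dhrs3. All of these were picked as the highest among all named genes tested, over only 12 samples. Such picking by itself yields high values, and a link between these genes and the members was not tested.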

How the data were processed

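Scanner output of 8 two-colour arrays holds spot and local background intensity, not log transformed, per the file headers. They name Agilent Feature Extraction 10.7.3.1, while the submitters' processing notes name 9.1. Log10 ratios of the processed signals are also deposited by the authors and served as an alternative. The authors' deposited value table holds log2 ratios for all 12 samples. Its scale was checked against the 8 scanner files: once a smooth trend with brightness was removed, 99.6% to 99.97% of probes per array lay within 0.05 of the background-subtracted log2 ratio, and probes with no net signal in a channel were listed at 0. The making of the 40-week columns is not given in the sources used here.

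Intensities were corrected with normexp (offset 50) and loess within arrays in R 4.3.3 with limma 3.58.1. Probes well above background in Cy5 on at least 3 of 4 arrays of 1 group were kept (30455), the brightest per gene. The 4-week comparison used these ratios, and both 40-week comparisons the deposited table in 1 fit of 3 groups. Each channel was also quantile normalised and tested alone. Every adjusted p is limma's, with Benjamini-Hochberg adjustment. All members were named, with the 2 genes most like each and up to 6 pathway genes per comparison. Members, lists and rules were chosen with earlier results of these data known. Tests were also tried on simulated data, drawn with the means and spreads of the real values. Precision is limited by the 4 arrays of each group.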

Additional observations from a re-analysis of the deposited data

Results flagged for a closer look

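Values were searched for a sample whose gap to its nearest neighbour took a larger part of its group's range than Dixon's critical value, in 119 groups of 4 values of the members' probes, and 6 were found. Chance alone marks about 1 in 20 such groups, so a number of this size carries little by itself. Dhrs9 accounted for 2 of them: control replicate 1 had a log2 ratio of -1.11, with the other controls at 1.75 to 2.32, and its Cy3 level was 13.2 (log2, quantile normalised), with the other controls at 9.42 to 9.94. Dhrs3 had a log2 ratio of 0.86 in 4-week replicate 2, below 1.40 to 1.48 in the rest of its group. Rara had -0.42 in control replicate 3, below -0.26 to -0.23 in the other controls. The Cy3 level of Rarb was 9.23 in 4-week replicate 1, above 9.01 to 9.05, and that of Crabp1 was 13.3 in control replicate 4, below 13.6 to 13.7.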

How the results depend on the processing

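No member was called at 4 weeks in 22 of 23 alternatives, single samples left out included (0 to 0 called), and the deposited table called 1, Rdh10. Against control at 40 weeks, quantile normalisation and scaling to 1 spread each left 1 call, Crabp2, of 4. Of all 20735 genes, 7627 and 7720 were called in these settings. Leaving out single samples gave 4 to 5, where 7215 to 9257 of all 20735 genes were called. The fifth was Dhrs9 without control replicate 1, the setting with 9257. Leaving out 40-week replicates 3 and 4 gave 3, where 5057 of all 20735 genes were called. The lost call was Rdh10, whose change was 0.56 with fewer samples and 0.52 with all. With every probe tested by itself, 6 members had a called probe (3 probes higher and 4 lower). The share of all genes with a called probe was not computed. Against 4 weeks the count of 4 lay between 3 and 6 in all alternatives. The 3 came from scaling to 1 spread, where 8043 of all 20735 genes were called. The 6 came from every probe tested by itself, again without a share over all genes. Single samples left out gave 4 to 4, where 7090 to 8229 of all genes were called. Correlations of same-numbered deviations ran from -0.48 to 0.32 at 4 weeks against control. They ran from 0.06 to 0.20 at 40 weeks against control, and from -0.20 to 0.18 at 40 against 4 weeks. These few values cannot settle whether replicate numbers pair the samples. A replicate block kept the counts at 0, 4 and 4, where 0, 8700 and 8436 of all 20735 genes were called. Averaging the kept probes of a gene was chosen after seeing the data.

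Signs turned as follows, none of the 4-week values being called, and the cause was not tested. At 4 weeks, median centring gave Dhrs3 -0.068, scaling gave Crabp2 0.15, and Cy3 alone gave Crabp1 -0.069, Crabp2 0.25, Dhrs9 -0.035, Rdh10 -0.23, Rara -0.043 and Rarg -0.028. Without the 3 arrays with other organs' transcripts Crabp2 was 0.25. Single samples left out gave Crabp2 -0.65 to 0.019 and Dhrs9 -0.19 to 0.96. At 40 weeks against control, quantile normalisation gave Dhrs3 0.27, Dhrs9 0.41, Rara -0.16 and Rarb 0.15, and scaling gave 0.36, 0.50, -0.11 and 0.30. Dhrs9 was 0.043 without 40-week replicates 3 and 4 and 0.805 without the 3 arrays, and probe means gave Rdh10 -0.13 and Rarg 0.34. Single samples left out gave Dhrs3 -0.16 to 0.022 and Dhrs9 -0.87 to 0.33. At 40 against 4 weeks, quantile normalisation gave Dhrs3 0.052, scaling gave Dhrs3 0.16 and Crabp1 -0.14, array weights gave Rdh10 0.016 and Rara 0.039, and probe means gave Rarg 0.011. Rdh10 was 0.032 without 40-week replicates 3 and 4, and Rarb -0.028 without the 3 arrays. Single samples left out gave Rdh10 -0.095 to 0.065, Rara -0.26 to 0.058 and Rarb -0.028 to 0.33.

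Of 58 pathway genes, 31 were called against control and 22 against 4 weeks, where 8823 and 8618 of all 20735 genes were. Without 40-week replicates 3 and 4 the counts were 16 and 13, where 5057 and 4679 of all genes were called. At 4 weeks the deposited table called 5 of them and Cy3 alone 11, where 6.01% and 8.7% of all genes were called. Among all genes, 229 were called at 4 weeks, and 0 to 52 when 1 array was left out.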
